A study of Rattus norvegicus with 53 samples.

Results

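The 4 Id genes, Id1, Id2, Id3 and Id4, and the 2 genes of the inhibitory Smads, Smad6 and Smad7, were followed over 8 hours in L6 myotubes, the fused fibres that a cell line from rat skeletal muscle forms in culture. A probe set of the array was taken as a member when its only gene symbol in the platform annotation was one of these 6 names. That rule found 15 of the 31099 probe sets, 1 for Id1, 2 for Id2, 1 for Id3, 4 for Id4, 4 for Smad6 and 3 for Smad7. The brightest probe set of each gene, by its mean over all arrays, stands for the gene, out of 14217 genes that were found by the same rule in the whole series. Of the 15 probe sets 12 had a mean of at least 5 on the log2 scale and were tested, among 22143 tested in all, and the brightest of every member was among them.

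Myotubes received serum-free medium for 8 h and then, from time 0, serum-free medium with 20 nM insulin (the insulin culture), or were kept in medium with no insulin (the control culture). Samples were taken every 20 min and the 3 samples of an hour were pooled on 1 array, so that each value from hour 1 to hour 8 averages 3 time points. Time 0 was pooled from triplicate samples of each culture before insulin. The whole experiment was done 3 times on different days, lettered a, b and c in the labels, all with the same cell line. With 2 cultures and 9 time points there are 18 groups, each of 3 arrays except the insulin culture at hour 3, where letter a is not among the samples and 2 arrays remain, and 53 arrays in all. All groups share the cell line and the time without serum before time 0. The time 0 samples were taken before the medium of the insulin plates was changed, and whether the control plates also received fresh medium is not given in the sources used here, so a change that both cultures share cannot be told apart from an effect of time without serum or of handling. The labels call the cells myoblasts, while the study describes differentiated myotubes. Markers of differentiated muscle had means of 5 or more for all 13 genes with a probe set, with a median of 12 on the log2 scale. Markers of undifferentiated myoblasts had such means for 4 of 5 (median 10.1), with Myod1 below that level, markers of fibroblasts for 6 of 6 (median 10.91) and endothelial markers for 0 of 5.

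Id proteins carry a helix-loop-helix but no basic DNA-binding region. They pair with E proteins, the partners of the myogenic factors, and so keep those partners off DNA, which is known to hold muscle precursors in an undifferentiated state. Id genes are immediate targets of bone morphogenetic proteins (BMPs) through Smad1, Smad5 and Smad4, and serum also induces them in many cells. Smad6 and Smad7 bind the activated receptors and close the loop: Smad6 mainly restrains BMP signals, while Smad7 restrains both BMP and transforming growth factor beta (TGF-beta) signals.

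The stretch of 250 bases just before the transcript start is shown for the 3 Id genes whose levels moved together most closely, so that the elements near their start sites can be compared. Capitals mark TATAA (the core of a TATA box) and CCAAT, searched on both strands, so ATTGG is CCAAT on the other strand. The sequences are from RefSeq on build GRCr8, 5′ to 3′ along the gene's own strand, which is the minus strand for Id2.
Id1, chr3:161671314-161671563: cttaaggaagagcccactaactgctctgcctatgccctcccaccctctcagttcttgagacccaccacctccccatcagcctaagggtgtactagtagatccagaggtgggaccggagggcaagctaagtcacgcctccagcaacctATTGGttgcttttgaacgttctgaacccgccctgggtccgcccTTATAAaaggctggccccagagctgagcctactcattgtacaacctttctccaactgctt
Id2, chr6:47470996-47471245: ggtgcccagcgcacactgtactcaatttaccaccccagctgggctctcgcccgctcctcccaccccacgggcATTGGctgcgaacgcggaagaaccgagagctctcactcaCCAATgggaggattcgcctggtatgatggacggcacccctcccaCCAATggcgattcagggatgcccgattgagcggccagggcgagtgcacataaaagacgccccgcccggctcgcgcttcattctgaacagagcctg
Id3, chr5:153656041-153656290: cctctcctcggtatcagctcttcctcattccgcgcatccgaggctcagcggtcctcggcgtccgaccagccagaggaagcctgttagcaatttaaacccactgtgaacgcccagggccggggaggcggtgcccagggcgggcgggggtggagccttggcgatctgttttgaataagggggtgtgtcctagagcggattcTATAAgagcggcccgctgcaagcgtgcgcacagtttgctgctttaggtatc
TATAA was present in the windows of Id1 and Id3 and in 24% of the 33469 RefSeq promoters searched over the same length. CCAAT was present once for Id1 and 3 times for Id2, and in 34% of all promoters. RefSeq gave a promoter for 5 of the 6 members, and the GC box GGGCGG was present in each of these 5, against 30.5% of all promoters. GGCGCC, the core of the BMP response element, had no match in the 4 Id windows and 2 matches in that of Smad7, against 8.69% of all promoters. AGAC, the Smad box, is found in 84% of all promoters and was present for Id1, Id2, Id4 and Smad7. These matches describe letters only, and elements further away were not searched.

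In letters b and c the Id genes were high at time 0 and hour 1 and low from hour 4 to hour 8, in both cultures, and Id1 and Id3 stood lower at hour 2 than at hour 1 already. At hours 1 and 2 all 4 stood lower in letter a than in letters b and c, and Id4 in the insulin culture was lower at hour 8 than at hour 4 on each day. All values are log2 levels on the scale on which the arrays were normalized together, so a difference of 1 is a factor of 2. Levels of different probe sets are not compared with each other.

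Id3, which restrains E proteins and is expressed in muscle precursors, moved over the widest range. At time 0 it stood at 11.15, 11.38 and 10.93 in the insulin cultures of letters a, b and c, and at 8.71, 11.11 and 11.45 in the control cultures. At hour 1 the levels were 9.04, 11.17 and 11.48 in the insulin cultures and 9.14, 10.94 and 11.57 in the control cultures. At hour 2 they were 8.84, 10.42 and 10.49 in the insulin cultures and 8.81, 10.31 and 10.68 in the control cultures. Up to this point letters b and c were high in both cultures, and letter a was low in both from hour 1, with its control array low at time 0 already. By hour 3 the levels were 8.58 and 8.85 in the insulin cultures of letters b and c, and 8.16, 8.28 and 9.23 in the control cultures of letters a, b and c. By hour 4 they were 7.89, 8.34 and 8.77 in the insulin cultures and 8.05, 7.82 and 8.34 in the control cultures. Over hours 5 to 8 the 12 arrays of the insulin culture ranged over 7.69 to 9.13 with a median of 8.28, and those of the control culture over 7.78 to 8.64 with a median of 8.2. The late ranges of the 2 cultures overlap, and every late array of letters b and c lies below every array of those letters at hours 0 to 2.

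Id1 is a well-known BMP target in myoblasts. Its level at time 0 was 8.91, 9.05 and 9.05 in the insulin cultures of letters a, b and c, and 7.50, 9.28 and 9.32 in the control cultures. At hour 1 it was 7.68, 9.23 and 9.79 in the insulin cultures and 7.49, 9.26 and 9.90 in the control cultures, and at hour 2 it was 7.81, 8.75 and 8.67 in the insulin cultures and 7.53, 8.42 and 8.61 in the control cultures. At hours 1 and 2, as for Id3, letter a stood below letters b and c in both cultures, by more than the cultures of any 1 day differed. By hour 4 the levels were 7.35, 7.66 and 7.79 in the insulin cultures and 7.38, 7.23 and 7.54 in the control cultures. Over hours 5 to 8 the insulin arrays ranged over 7.22 to 8.15 (median 7.66) and the control arrays over 7.01 to 7.82 (median 7.46), which overlap widely.

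Id2 can also bind the retinoblastoma protein, and its late levels were higher in the insulin culture on each day. At time 0 it was 10.28, 10.06 and 10.54 in the insulin cultures of letters a, b and c, and 8.72, 10.32 and 10.70 in the control cultures. At hour 2 it was 9.53, 10.20 and 10.32 in the insulin cultures and 9.04, 10.22 and 10.62 in the control cultures, and at hour 4 it was 8.93, 9.16 and 9.14 in the insulin cultures and 8.91, 8.61 and 8.68 in the control cultures. The cultures thus overlapped at hour 2 and not at hour 4, where the insulin array of letter a was just above the control array of the same day. At hour 5 the levels were 8.86, 9.16 and 9.40 in the insulin cultures and 8.65, 8.66 and 8.47 in the control cultures. At hour 6 they were 8.78, 9.11 and 9.54 in the insulin cultures and 8.20, 8.76 and 8.49 in the control cultures. At each of hours 4, 5 and 6 every insulin array lay above every control array of that hour, at hour 6 with 8.78 next to 8.76. Id2 passed the test at none of these hours (limma, 0.0497%, 0.348% and 0.33% of all probe sets passed at hours 4, 5 and 6). At hour 7 Id2 stood at 8.68, 9.28 and 9.49 in the insulin cultures and 8.35, 8.71 and 8.78 in the control cultures, and at hour 8 at 8.62, 9.29 and 9.76 in the insulin cultures and 8.33, 8.80 and 8.82 in the control cultures. Here the insulin array of letter a overlapped with the control arrays of letters b and c, while on each day the insulin array was the higher one (0.266% and 0.714% of all probe sets passed at hours 7 and 8, Id2 not among them).

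Id4, best known for its part in neural precursors, was lower at hour 4 than at hour 2 on each day in both cultures. Its level at time 0 was 8.36, 8.25 and 8.28 in the insulin cultures of letters a, b and c, and 7.34, 8.05 and 8.58 in the control cultures. At hour 2 it was 7.66, 8.34 and 8.32 in the insulin cultures and 7.44, 8.20 and 8.45 in the control cultures. By hour 4 the levels were 7.01, 7.26 and 6.85 in the insulin cultures and 6.84, 7.19 and 6.95 in the control cultures. At these times the cultures overlapped, and letter a was the lowest at hour 2 in both. At hour 8 the levels were 6.55, 6.96 and 6.42 in the insulin cultures and 6.87, 7.08 and 6.78 in the control cultures, lower with insulin on each of the 3 days. For the next brightest probe set of Id4 insulin minus control at hour 8 was -0.33, -0.25 and 0.16, so the days did not share a direction there.

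Smad6 and Smad7 did not share this course at their brightest probe sets. Smad6 ranged over 7.1 to 7.53 in the 23 insulin arrays of hours 1 to 8 (median 7.35) and over 7.12 to 7.76 in the 24 control arrays (median 7.34). Smad7 ranged over 5.7 to 6.34 in the insulin arrays (median 5.99) and over 5.79 to 6.29 in the control arrays (median 6.05). For both genes the ranges of the cultures overlap almost whole, and time 0 lies within them or close by, at 7.34 to 7.54 (insulin) and 7.24 to 7.68 (control) for Smad6 and at 6.02 to 6.16 (insulin) and 6.13 to 6.36 (control) for Smad7.

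**Figure D1:**
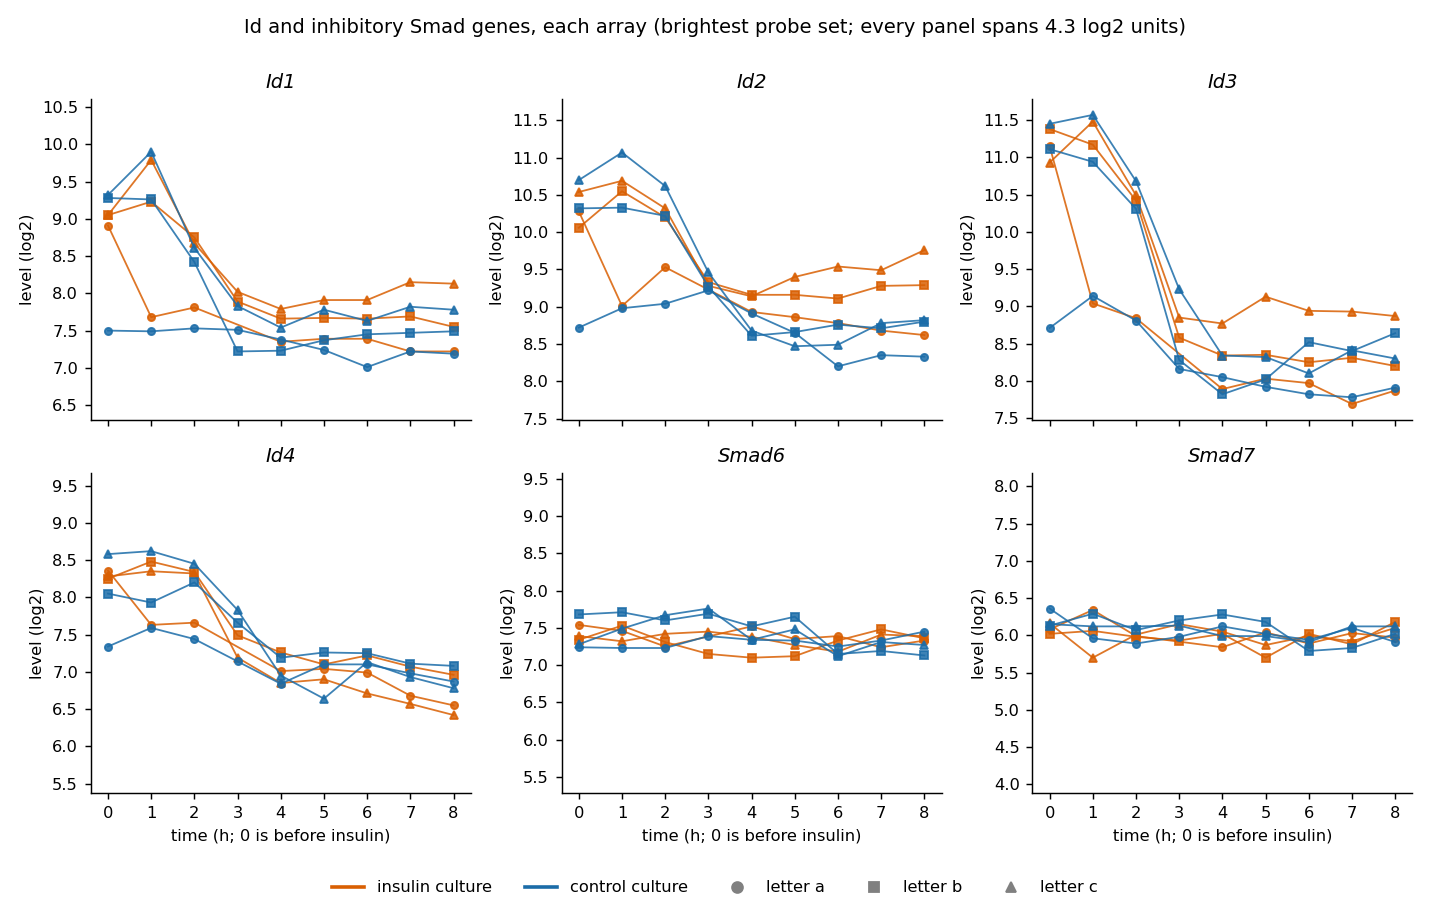
Log2 level of the brightest probe set of each member on every array (y axis) against time in hours (x axis), in insulin cultures (orange) and control cultures (blue), with a marker for each letter; the insulin line of letter a joins hours 2 and 4, as its hour 3 array is not among the samples. The Id genes of letters b and c fall in both cultures between hours 1 and 4, letter a is low from hour 1, and Smad6 and Smad7 stay within 1 log2 unit.

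The fall was tested within each culture. For hours 5 to 8 minus time 0, 3 of 6 members passed in the insulin culture, all lower, where 1.44% of all probe sets passed in either direction and 0.93% were lower. In the control culture 4 of 6 passed, all lower, where 6.41% of all probe sets passed and 2.8% were lower. Id3 changed by -2.78 ± 0.46 (standard error) in the insulin culture, a 6.85-fold fall (adjusted p = 0.000451), and by -2.24 ± 0.46, 4.74-fold, in the control culture (adjusted p = 0.00137). Id4 changed by -1.45 (adjusted p = 4.14e-05) in the insulin culture and by -0.97 (adjusted p = 0.00196) in the control culture. Id1 changed by -1.35 (adjusted p = 0.034) in the insulin culture and by -1.25 (adjusted p = 0.0212) in the control culture. Id2 changed by -1.13 in the insulin culture, which did not pass (adjusted p = 0.0757, with the letter as a block 0.0007, where 8.49% of all probe sets passed), and by -1.33 in the control culture (adjusted p = 0.00887). Neither Smad6 (differences of -0.1 in both cultures) nor Smad7 (-0.12 in the insulin culture and -0.22 in the control culture) passed, with adjusted p between 0.152 and 0.867.

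Because the control array of letter a was low at time 0, the same late hours were also set against hours 1 and 2, a choice made after the values were seen. Then 4 of 6 members passed in each culture, all of them the Id genes and all lower, against 3.38% of all probe sets called in the insulin culture (1.84% lower) and 13.1% in the control culture (6.4% lower). The changes were -1.86, -1.28, -1 and -0.89 in the insulin culture for Id3, Id4, Id1 and Id2, with adjusted p of 0.00121, 1.74e-06, 0.0269 and 0.0415. With no filter on low values Id2 no longer passed there (adjusted p = 0.0543). In the control culture they were -2.06, -1.02, -1.08 and -1.46 for the same genes, with adjusted p of 8.33e-05, 1.95e-05, 0.0049 and 0.000103. Ranked from the most negative change among 11631 genes, Id3 was the second in the insulin culture and the first in the control culture, Id4 was at places 5 and 25, Id1 at 9 and 21, and Id2 at 16 and 5.

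Every day showed the fall. The mean of hours 5 to 8 lay below that of hours 1 and 2 in 24 of 24 combinations of 4 Id genes, 2 cultures and 3 letters, with changes of -2.84 to -0.35. These combinations come from 3 days and from genes that moved together, so they are not 24 separate measurements. The baseline was chosen after the values were seen. The smallest fall of each Id gene in each culture was that of letter a, whose starting levels were low, such as -1.05 in the insulin culture and -1.12 in the control culture for Id3. For letter b the changes of Id3 were -2.52 in the insulin culture and -2.23 in the control culture, and for letter c -2.02 in the insulin culture and -2.84 in the control culture. In letters b and c the level of Id1, Id2 and Id3 at hour 4 had already covered 97.5% to 142% of the distance between the early and the late mean, and that of Id4 87.1% to 98.7%. At hour 3 Id4 had covered 42.6% to 69.8% and Id1 81.4% to 116%. In letter a, where the distance was smaller, the share covered by hour 4 was 88.5% (insulin) and 36.7% (control) for Id1, 64.1% (insulin) and 16% (control) for Id2, 99.8% (insulin) and 82.5% (control) for Id3, and 76.9% (insulin) and 135% (control) for Id4. By hour 3 the control culture of letter a had covered 0.246% for Id1 and -33.1% for Id2, that is, Id2 stood higher than at hours 1 and 2.

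The test of any change over times 0 to 8 called 2 of 6 members in the insulin culture, Id3 (adjusted p = 0.00291) and Id4 (adjusted p = 3.18e-05), where 0.745% of all probe sets passed. In the control culture it called 3 of 6, Id2, Id3 and Id4, with adjusted p of 0.00724, 0.00143 and 0.00077, where 4.21% passed, and Id1 did not pass (adjusted p = 0.0577). With the letter as a block all 4 Id genes passed in each culture, where 5.63% of all probe sets passed in the insulin culture and 16% in the control culture. Without letter b and without letter c 0 of 6 passed in either culture, and without letter a the count was 4 in the insulin culture and 5 in the control culture, Smad6 being the fifth (adjusted p = 0.0326). The share of all probe sets called without a letter is not given here, so a general shift in calls cannot be told apart.

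These tests take the arrays of a day as separate measurements, and the 4 arrays of hours 5 to 8 from 1 day share that day. With 1 mean per letter and period, which leaves 3 values per culture, no member passed in any comparison it was run for. How many of all probe sets passed in that fit is not given here. For the control culture against hours 1 and 2 the adjusted p of the Id genes was then 0.151 to 0.773, and 4921 probe sets had an unadjusted p under 0.05. Leaving out 1 letter also moved the counts. The share of all probe sets called in these fits is not given here, so the counts are not read as a result about the members. Against time 0, 1 member passed in the insulin culture without letter b (Id4), 2 without letter c (Id3 and Id4) and 4 without letter a, and in the control culture 0 passed without letter b, 0 without letter c and 4 without letter a. Against hours 1 and 2, Id4 alone passed in the insulin culture without letter b and without letter c, and Id3 and Id4 passed in the control culture without letter b and without letter c. Id4 without letter b then changed by -1.26 in the insulin culture (adjusted p = 0.00792) and by -1.08 in the control culture (adjusted p = 0.0114). Without letter a all 4 Id genes passed in each culture, and Smad6 passed too in the control culture, with a change of -0.33 (adjusted p = 0.00766). No member passed for the step between time 0 and hour 1 in either culture, where 0% of all probe sets passed by limma (200 in the insulin culture and 261 in the control culture had an unadjusted p under 0.05).

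**Figure D2:**
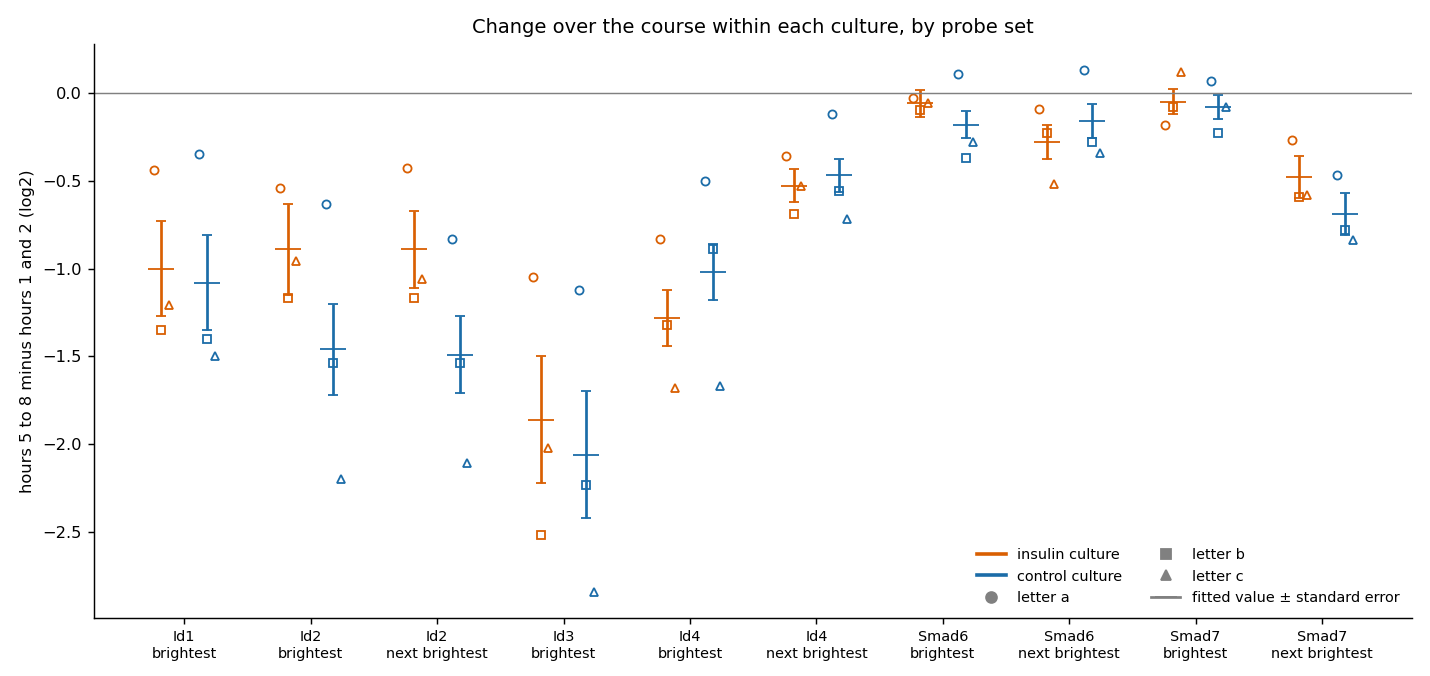
Change of each member within each culture, hours 5 to 8 minus hours 1 and 2 on the log2 scale (y axis), for the brightest and next brightest probe set of each gene (x axis), insulin culture (orange) left of control culture (blue). Bars are the fitted value ± its standard error and open markers are the letters; all 24 marks of the brightest Id probe sets lie below 0, with letter a nearest to it, and the next brightest probe set of Smad7 lies at -0.48 (insulin) and -0.69 (control).

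The time 0 arrays of letter a differed between the cultures although neither had received insulin. There the insulin culture minus the control culture was 2.44 for Id3, 1.56 for Id2, 1.41 for Id1 and 1.03 for Id4, which by size are places 1, 12, 26 and 126 among the 22143 probe sets, and 0.3 for Smad6 and -0.28 for Smad7. In letters b and c the same difference lay between -0.51 and 0.27 for the Id genes. At time 0 the number of probe sets that differed by more than 1 was 141 for letter a, 83 for letter b and 39 for letter c. The insulin array of letter a then fell by 2.11 for Id3 between time 0 and hour 1, while the control array stood 0.43 higher at hour 1, so that both cultures of letter a reached hour 1 within 0.1 of each other for Id3. Between time 0 and hour 1 of letter a, 100 probe sets moved by more than 1 in the insulin culture and 25 in the control culture. Which of the 2 time 0 arrays of letter a is unusual was not tested. Leaving out the control array of letter a at time 0 turned the changes of the control culture against time 0 to -3.1 for Id3, -1.93 for Id2, -1.85 for Id1 and -1.3 for Id4, all past the threshold. No fit left out only the insulin array of letter a at time 0.

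Insulin against control was the comparison the design was made for. With the letter as a block, which keeps the pairing by day, Id2 passed over hours 1 to 8 (limma, adjusted p = 0.0245) and over hours 5 to 8 (adjusted p = 0.00245). In that fit 26.6% and 21.7% of all probe sets passed. Without the block no member passed at its brightest probe set over all arrays. For the mean of hours 1 to 8 the count without the block was 0 of 6 where 12% of all probe sets passed, with 1 of 6 at an unadjusted p under 0.05. For hours 5 to 8 it was 0 of 6 where 9.26% passed, and for hours 1 and 2 it was 0 of 6 where 0% passed by limma and 2096 probe sets had an unadjusted p under 0.05. At single hours no member passed, where 0% of all probe sets did at hours 1 to 3 (573, 957 and 973 had an unadjusted p under 0.05). Before insulin, at time 0, and for the difference over hours 1 to 8 taken relative to time 0, 0 of 6 members and 0% of all probe sets passed (212 and 516 at an unadjusted p under 0.05). The test of any difference over hours 1 to 8 called 0 of 6 members and 2.4% of all probe sets.

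Id2 came nearest. Over hours 5 to 8 its 12 insulin arrays ranged over 8.62 to 9.76 (median 9.22) and its 12 control arrays over 8.2 to 8.82 (median 8.65). On the same day and hour the insulin array was higher in 12 of 12 pairs, by 0.2 to 1.05, and the mean differences by letter were 0.35, 0.48 and 0.91 for a, b and c. The fitted difference was 0.58 ± 0.21 (standard error, 95% interval 0.16 to 1.00), a 1.49-fold higher level, with an adjusted p of 0.075. With the letter as a block the adjusted p was 0.00245, where 21.7% of all probe sets passed, with 1 mean per letter it was 0.0984, and without the control array of letter a at time 0 it was 0.042. Without letter a the difference was 0.69 and passed (adjusted p = 0.000159), as did the mean of hours 1 to 8 (0.37, adjusted p = 0.00132) and the test of any difference (adjusted p = 0.0167). Without letter b and without letter c Id2 passed none of these. The share of all probe sets called in the fits without a letter or without that time 0 array is not given here. A gain for Id2 thus cannot be told apart from a general rise in calls. The dimmer probe set of Id2, 1368870_at, which followed the brightest with a correlation of 0.97 over 53 arrays, differed by 0.56 ± 0.18 and passed (adjusted p = 0.0423), higher with insulin in 12 of 12 pairs. Over hours 1 and 2 the difference of Id2 was 0.01 ± 0.29, and over hours 1 to 8 it was 0.33 ± 0.15 (adjusted p = 0.149, with the letter as a block 0.0245, where 26.6% of all probe sets passed). The change between these periods, which tests whether the fall differs between the cultures, was 0.57 ± 0.36 and did not pass (adjusted p = 0.507), where 1.84% of all probe sets passed. By letter this change was 0.1, 0.38 and 1.24, so letter c carries most of it, and with letter a left out it was 0.81 and passed the threshold (adjusted p = 0.0197). It did not pass without letter b or without letter c.

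The other members differed by less. Id1 was higher with insulin in 11 of 12 pairs of hours 5 to 8, but by no more than 0.38, and the fitted difference was 0.2 (95% interval -0.24 to 0.65, adjusted p = 0.703). Id3 differed by 0.2 (interval -0.39 to 0.79), with letters at 0.03, -0.12 and 0.69, so the days did not share a direction. Id4 was lower with insulin in 11 of 12 pairs, with a difference of -0.17 (interval -0.43 to 0.09, adjusted p = 0.536). Its next brightest probe set, 1375120_at, was higher with insulin in 6 of 12 pairs, with a difference of -0.08. Smad6 differed by 0.02 (interval -0.11 to 0.15) and Smad7 by -0.03 (interval -0.15 to 0.09). At these brightest probe sets the intervals of the 2 Smads leave out a difference of 0.2 in either direction, while those of Id1 and Id3 include 0.6. For the next brightest probe set of Smad7 the interval was -0.15 to 0.26, which includes 0.2. All these intervals take the arrays of a day as separate measurements.

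**Figure D3:**
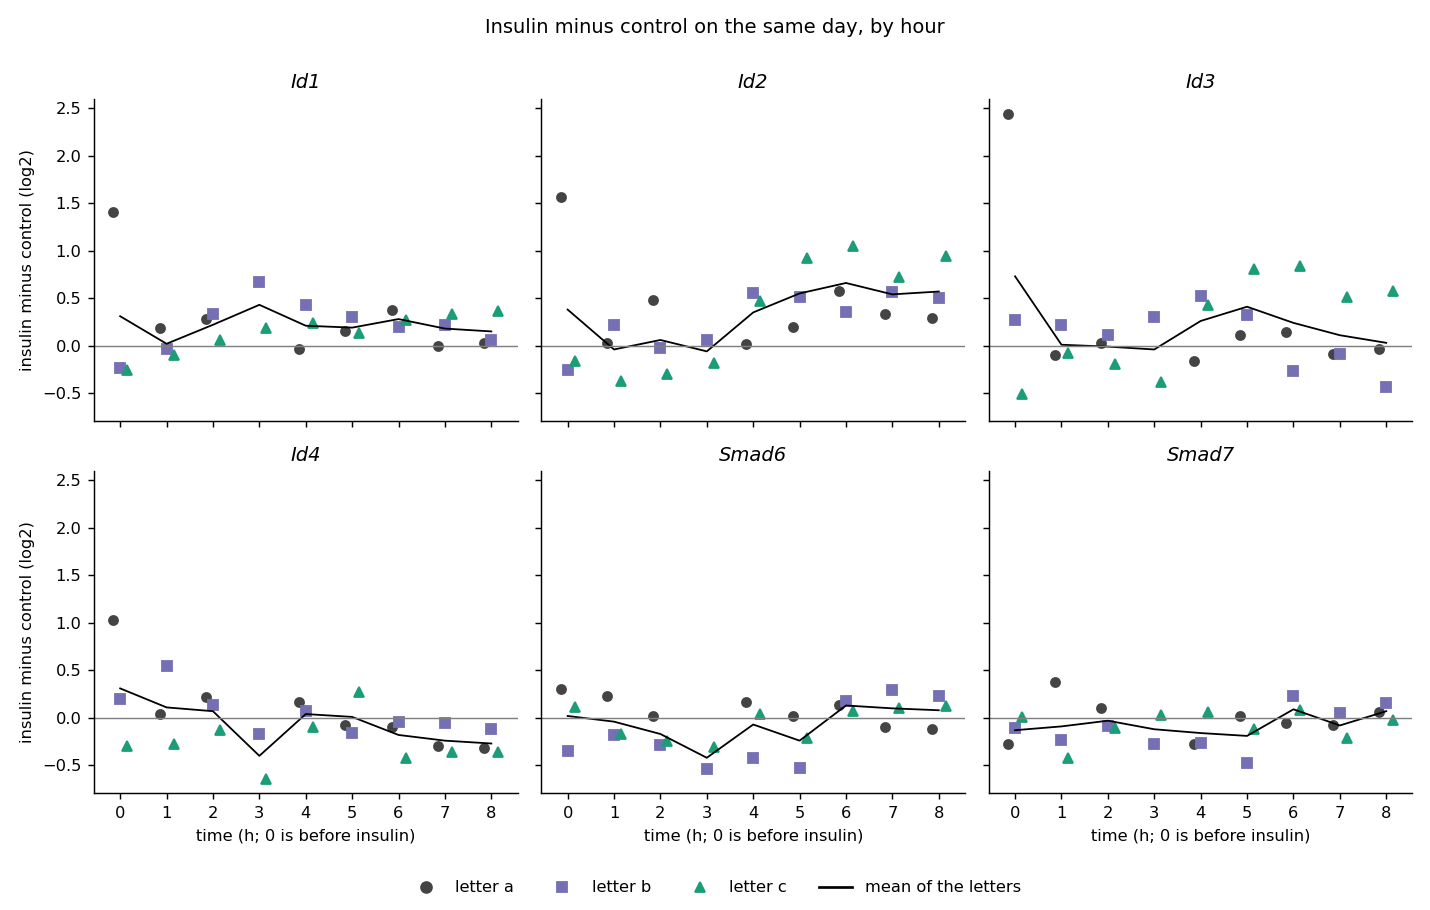
Insulin minus control on the same day (log2, y axis) by hour (x axis) for each member, with a marker for each letter and a line for the mean of the letters. At time 0 letter a stands at 1.03 to 2.44 for the Id genes, and from hour 5 all 12 points of Id2 lie above 0.

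The probe sets of a gene did not always tell the same course. The tested probe sets of Id2 (2) and Id4 (3) all passed as lower in both cultures against hours 1 and 2, and within Id4 the 3 dimmer ones followed the brightest with correlations of 0.836 to 0.883. For Smad7 they differed. The next brightest, 1368896_at, stood at 6.03, 6.22 and 6.60 at time 0 in the insulin cultures of letters a, b and c, and at 5.57, 6.89 and 6.42 in the control cultures. At hour 2 it was at 5.83, 5.47 and 5.62 in the insulin cultures and at 5.76, 6.09 and 5.68 in the control cultures, and over hours 5 to 8 it ranged over 5.13 to 5.71 in the insulin arrays and 5.02 to 5.75 in the control arrays. The late mean lay below time 0 on each day in both cultures, with differences of -0.47, -0.84 and -1.2 in the insulin cultures of letters a, b and c and -0.05, -1.41 and -1.25 in the control cultures.

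Against time 0 this Smad7 probe set changed by -0.84 in the insulin culture (adjusted p = 0.00241) and by -0.90 in the control culture (adjusted p = 0.000228). Against hours 1 and 2 it changed by -0.48 in the insulin culture (adjusted p = 0.0191) and by -0.69 in the control culture (adjusted p = 0.000119). Its insulin minus control difference over hours 5 to 8 was 0.06 ± 0.10. The brightest Smad7 probe set, 1368898_at, correlated with it at 0.193 over 53 arrays and passed no test, and the third was too dim to be tested. Which of them measures the transcript of Smad7 better was not tested. The tested probe sets of Smad6 passed no test of the fall over all arrays either, and the next brightest, 1394025_at, changed by -0.28 in the insulin culture (adjusted p = 0.112, with the letter as a block 0.0124) and by -0.16 in the control culture (adjusted p = 0.309) against hours 1 and 2.

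**Figure D4:**
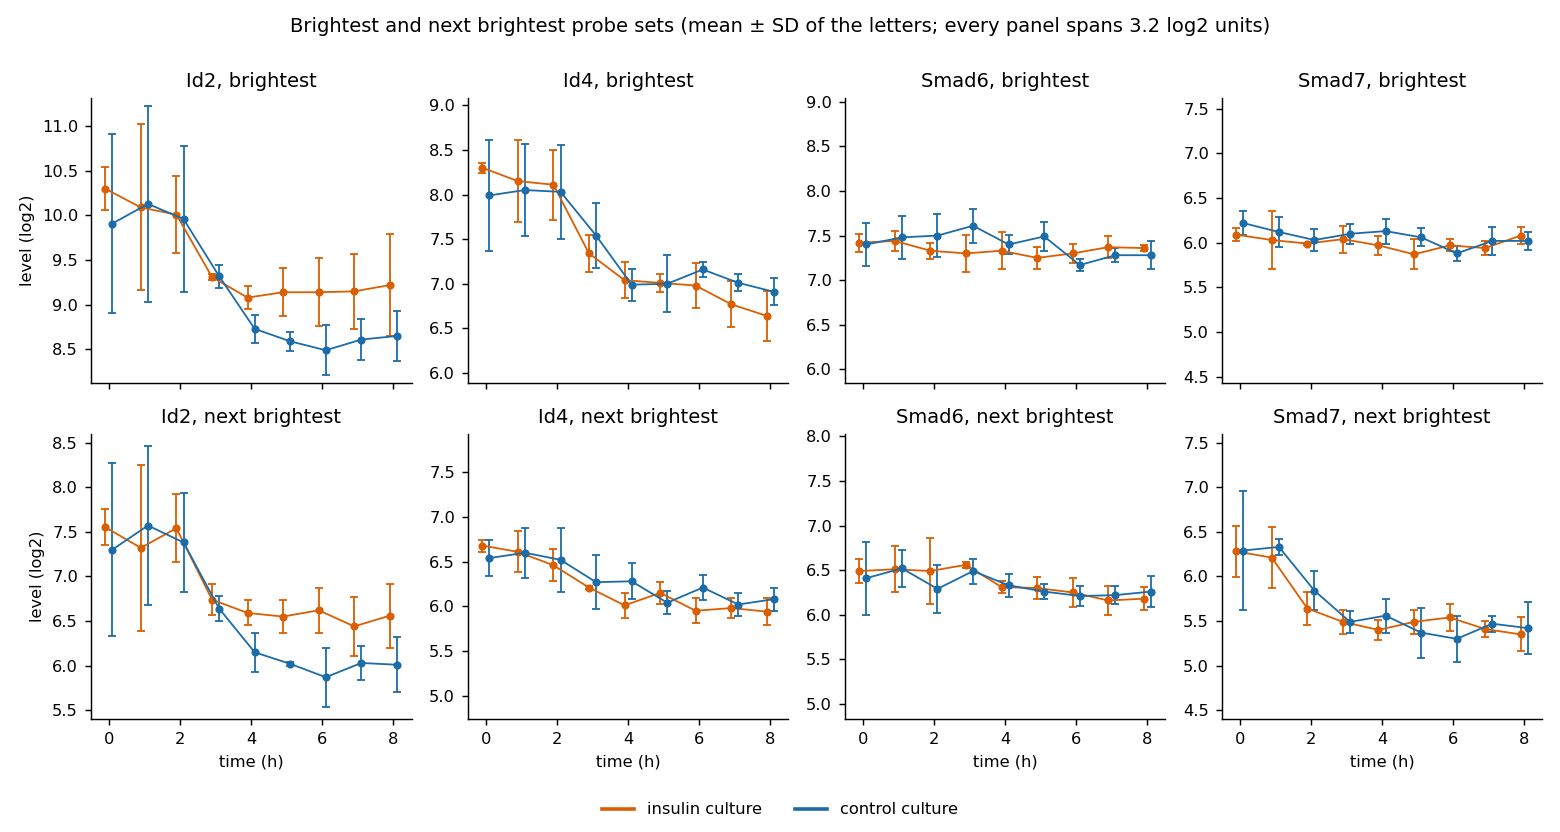
Mean ± SD of the letters (log2, y axis) against time in hours (x axis) for the brightest (top) and next brightest (bottom) probe sets of Id2, Id4, Smad6 and Smad7, insulin culture (orange) and control culture (blue), n = 3 but n = 2 at hour 3 of the insulin culture. Both probe sets of Id2 separate after hour 3, and of the 2 Smad7 probe sets shown the next brightest falls.

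The deviations of the members were also set against each other. Over the 53 arrays, after the mean of each group of culture and time was taken off, the deviations of Id1, Id2 and Id3 correlated at 0.93 to 0.95 with each other, those of Id4 at 0.59 to 0.70 with these 3, and those of Smad6 and Smad7 at 0.37 with each other. With the 4 Id genes Smad6 correlated at 0.28 to 0.31, not far from its value with Smad7, and Smad7 at -0.18 to -0.054. These points share the day of the culture. Over the 18 group means the genes most like Id3 were Id1 (Pearson r = 0.982), Pank1, a pantothenate kinase (0.974), and Mcl1, a survival factor of the Bcl-2 family (0.972). Those most like Id1 were Id3, Egr2, an immediate early factor (0.977), and Hbegf, an epidermal growth factor receptor ligand (0.966). Id2 was nearest to Eva1b (0.975), Ripk3, a kinase of necroptosis (0.97), and Abl2 (0.964), and Id4 to Mdfic (0.977), Tns3 (0.971) and Ankrd13c (0.966). For Smad6 and Smad7, whose group means vary little, the highest values were 0.862 with Tmem259 and 0.88 with Hnrnpa2b1.

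The other genes of the BMP and TGF-beta pathway were read over the same hours. For hours 5 to 8 minus hours 1 and 2 the median over the Id list was -1.14 in the insulin culture and -1.27 in the control culture, against 0.02 and 0.015 over all genes tested in these cultures. Of 15 tested ligands 1 was lower in the insulin culture and 2 in the control culture, and the medians were 0.00 and -0.01. Over all probe sets 3.38% passed in the insulin culture and 13.1% in the control culture, in either direction. Tgfb3, a TGF-beta ligand, changed by -0.68 in the insulin culture (adjusted p = 0.00996) and by -1.02 in the control culture (adjusted p = 2.66e-05). Inhba, which encodes the activin A subunit, changed by -0.57 in the insulin culture (adjusted p = 0.242, with the letter as a block 5.24e-06) and by -0.83 in the control culture (adjusted p = 0.0198), and was higher with insulin by 0.59 over hours 1 to 8 (adjusted p = 0.00565).

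Against hours 1 and 2, 3.38% of all probe sets passed in the insulin culture and 13.1% in the control culture. Among 12 tested receptors and co-receptors 1 was higher and none lower over the hours in the insulin culture, and 2 were higher and none lower in the control culture. These were the BMP co-receptors Rgma, higher by 0.28 in the insulin culture, which did not pass (adjusted p = 0.121, with the letter as a block 0.00416), and by 0.73 in the control culture (adjusted p = 2.66e-06), and Rgmb, higher by 0.58 in the insulin culture (adjusted p = 0.0162) and by 0.93 in the control culture (adjusted p = 1.94e-05). Over hours 1 to 8 insulin minus control was -0.31 for Rgma (adjusted p = 0.000243), -0.32 for Rgmb (adjusted p = 0.00917) and -0.29 for the activin receptor Acvr2b (adjusted p = 1.21e-05), so 3 of 12 were lower with insulin and none higher, where 12% of all probe sets passed in either direction.

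Of the 5 tested receptor and common Smads 1 was lower with insulin over hours 1 to 8 and none higher, and over hours 5 to 8 1 was lower and 1 higher, where 9.26% of all probe sets passed. Smad4, the common partner, had an insulin minus control difference of -0.15 over hours 1 to 8 (adjusted p = 0.00244) and of -0.29 over hours 5 to 8 (adjusted p = 1.81e-05). Against hours 1 and 2 Smad4 changed by -0.20 in the insulin culture (adjusted p = 0.0361) and by 0.17 in the control culture (adjusted p = 0.038). Of 11 tested antagonists outside the cell or in its membrane 2 were lower with insulin over hours 1 to 8 and none higher, against the same 12% of all probe sets. Bambi, a pseudoreceptor that blocks TGF-beta and BMP signals, differed by -0.43 (adjusted p = 0.0122), and Nbl1, a secreted BMP antagonist, by -0.45 (adjusted p = 0.0199). Fst, the activin-binding follistatin, changed by -0.13 in the insulin culture (adjusted p = 0.634) and by -0.36 in the control culture (adjusted p = 0.0108) against hours 1 and 2. Among 16 tested restraints inside the cell the corepressor Tgif1 differed by -0.60 with insulin over hours 1 to 8 (adjusted p = 7.5e-07) and the ubiquitin ligase Stub1 by -0.10 (adjusted p = 0.028), and none was higher.

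Other known targets of these signals were mixed. Of 15 tested, 2 were higher and 3 lower with insulin over hours 1 to 8, where 12% of all probe sets passed. Klf10 was higher by 0.47 (adjusted p = 0.00174) and Hes1 by 0.39 (adjusted p = 0.0252), while Atoh8 differed by -0.26 (adjusted p = 0.00646) and Snai1 by -0.29 (adjusted p = 0.0328). Against hours 1 and 2, 2 of 15 targets were lower and none higher in the insulin culture, and 4 lower and 1 higher in the control culture. Of all probe sets 3.38% passed in the insulin culture and 13.1% in the control culture. Junb, an AP-1 subunit, changed by -0.37 in the insulin culture (adjusted p = 0.0493) and by -0.55 in the control culture (adjusted p = 0.000399), and Hes1 by -0.78 in the insulin culture (adjusted p = 0.0212) and by -0.68 in the control culture (adjusted p = 0.02).

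The partners that Id proteins bind, and related helix-loop-helix and Ets factors, were 12 tested genes. Of these 1 was higher and 2 lower against hours 1 and 2 in each culture, where 3.38% (insulin) and 13.1% (control) of all probe sets passed. Bhlhe40, a repressor of the same fold, changed by -0.77 in the insulin culture (adjusted p = 0.0068) and by -1.20 in the control culture (adjusted p = 6.55e-06), and Ets1 by -0.36 in the insulin culture (adjusted p = 0.0164) and by -0.48 in the control culture (adjusted p = 0.000214). Bhlhe41 was higher by 0.42 in the insulin culture (adjusted p = 0.0311) and by 0.51 in the control culture (adjusted p = 0.00206). Over hours 1 to 8 Tcf12, the E protein HEB, was higher with insulin by 0.15 (adjusted p = 0.00336), and Twist1 differed by -0.24 (adjusted p = 0.028). 

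Of the 16 restraints inside the cell 1 was higher and 2 were lower against hours 1 and 2 in the insulin culture, and 1 was higher and 3 were lower in the control culture. Of the 11 antagonists none passed in the insulin culture and 1, Fst, was lower in the control culture. The shares over all probe sets were 3.38% in the insulin culture and 13.1% in the control culture. With the letter as a block more genes of these lists passed, as did more of all probe sets, 15.2% in the insulin culture and 28.7% in the control culture. In the insulin culture 1 ligand was then higher and 2 were lower, 3 receptors were higher and 1 was lower, 2 antagonists were higher and 1 was lower, 1 restraint was higher and 3 were lower, and 1 target was higher and 4 were lower. On the list of Id partners and related factors 2 were higher and 3 lower. In the control culture 2 ligands were higher and 3 lower, 3 receptors were higher and none lower, 2 antagonists were higher and 2 lower, 2 restraints were higher and 7 lower, 2 targets were higher and 6 lower, and 4 partners or related factors were higher and 3 lower. The receptor and common Smads kept their counts, 1 lower in the insulin culture and 1 higher in the control culture. For insulin minus control over hours 1 to 8, where 26.6% of all probe sets passed with the block, 2 ligands were higher and 1 lower, 4 receptors were lower, 1 receptor or common Smad was higher and 3 were lower, 1 antagonist was higher and 3 were lower, 4 restraints were lower, 2 targets were higher and 4 lower, and 5 partners or related factors were higher and 2 lower.

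Markers of other cells and states were read beside the fall of the Id genes. The summed level of 8 proliferation genes, all with means of 5 or more, ranged over 11.42 to 12.18 at hours 1 and 2 and over 11.72 to 12.96 at hours 5 to 8 in the insulin culture, and over 11.28 to 12.25 and 11.49 to 12.91 in the control culture. Against hours 1 and 2 the median over these genes was 0.42 in the insulin culture, where none of the 8 passed, and 0.44 in the control culture, where 1 passed (Bub1, 0.61, adjusted p = 0.0397). Over all probe sets 3.38% passed in the insulin culture and 13.1% in the control culture. With the letter as a block 6 of 8 passed in the insulin culture and 8 of 8 in the control culture, all higher, where 15.2% and 28.7% of all probe sets passed in these cultures in either direction. The summed level of 13 myotube genes ranged over 15.35 to 16.27 at hours 1 and 2 and 15.33 to 16.27 at hours 5 to 8 in the insulin culture, and over 15.41 to 16.30 and 15.48 to 16.32 in the control culture, and none of them passed. With the letter as a block 1 of these 13 was higher in the insulin culture, and 1 was higher and 1 lower in the control culture.

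Of 6 fibroblast genes 1, Pdgfra, was lower in the insulin culture (-0.54, adjusted p = 0.00218), against a change of -0.23 in the control culture (adjusted p = 0.182, with the letter as a block 0.0498), and with the block 2 were lower in the insulin culture, and 1 higher and 1 lower in the control culture. Their summed level ranged over 14.07 to 14.68 at hours 1 and 2 and 14.10 to 14.90 at hours 5 to 8 in the insulin culture, and over 14.32 to 14.84 and 14.14 to 14.69 in the control culture. Of the 4 tested myoblast genes none passed, and with the block 1, Vcam1, was lower in the insulin culture (-0.27, adjusted p = 0.0329), while the summed level of all 5 ranged over 12.52 to 13.33 and 12.40 to 13.30 in the insulin culture and over 12.68 to 13.37 and 12.48 to 13.15 in the control culture. Macrophage genes had means of 5 or more for 4 of 6, with Ptprc and Adgre1 below that level, and a summed level of 8.27 to 8.71 over these periods in the insulin culture and 8.28 to 8.79 in the control culture. The part of these cells or states in the fall of the Id genes was not tested. In pooled RNA of a whole culture fewer cells with a transcript and less of it per cell cannot be told apart.

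**Figure D5:**
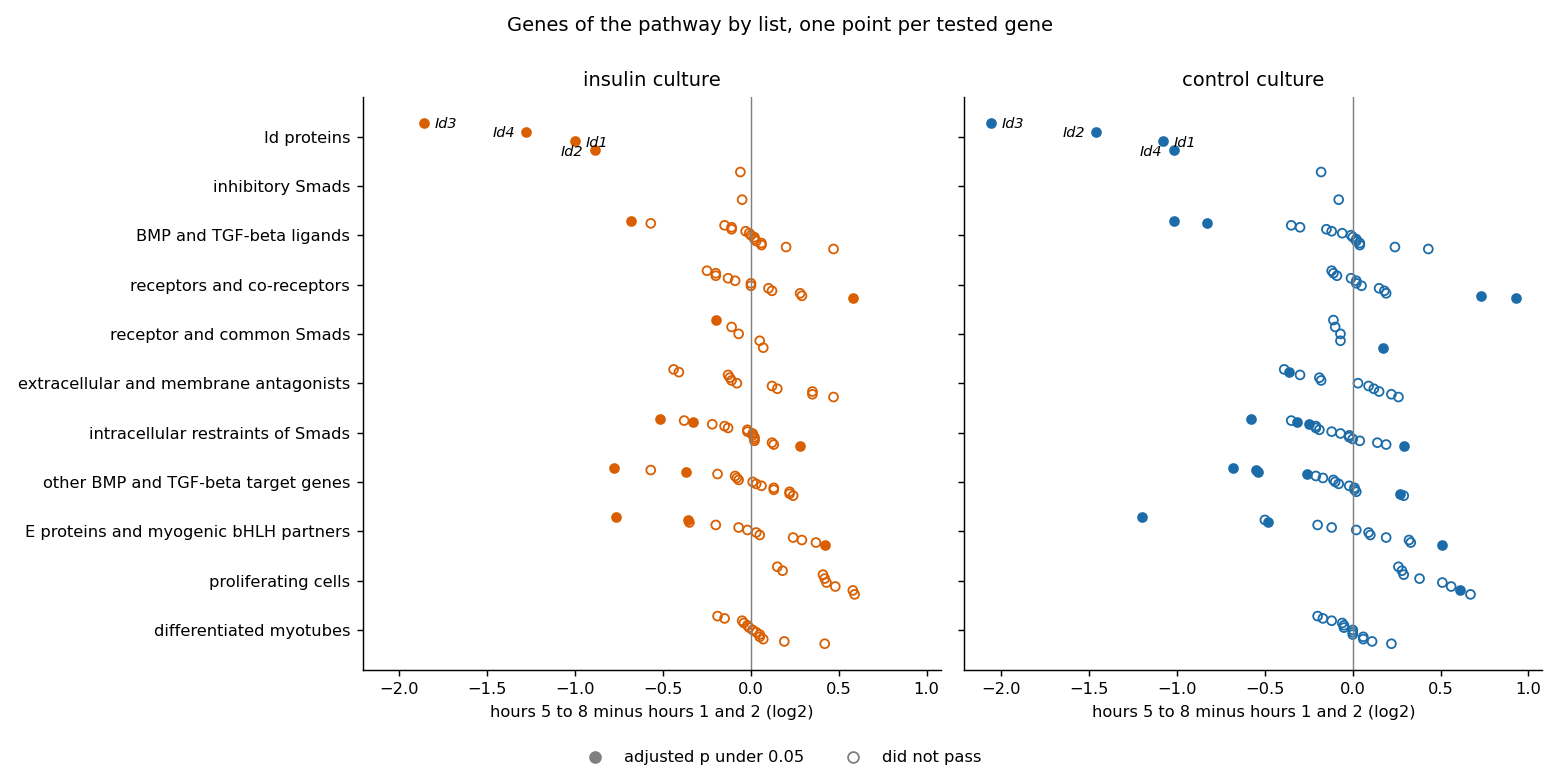
Change against hours 1 and 2 (hours 5 to 8 minus hours 1 and 2, log2, x axis) of every tested gene of each list (y axis), insulin culture on the left and control culture on the right, filled where the adjusted p is under 0.05. All 4 Id genes are filled and lie at -0.89 or below in the insulin culture and at -1.02 or below in the control culture, while the medians of the ligands are 0.00 and -0.01.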

How the data were processed

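RMA with background subtraction and quantile normalization was run by the authors on the Affymetrix rat arrays (version not given in the sources used here), and the deposited table is in log2 units. Quantile normalization gives arrays nearly the same distribution (medians 6.3 to 6.37) and removes any change shared by all genes. In the platform annotation 20826 probe sets have 1 symbol, 436 several and 9780 none, and 57 are controls of the manufacturer. Arrays were mapped to culture, hour and letter from their labels, and the last pool was taken as 440 to 480 min, after the sample source.

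Probe sets with a mean of at least 5 (22143) entered limma 3.58.1 (R 4.3.3), with 1 mean per group of culture and time and a variance trend. Tests were two-sided, an F-test for any change, and p-values were adjusted over all of them by the method of Benjamini and Hochberg, with a threshold of 0.05. The step was tested on simulated data whose arrays were drawn without a shared day, so it cannot show how a shared day bears on the calls. The cultures of a letter share a day, and in 26 pairs of arrays of 1 letter and hour the deviations from the group means correlated at 0.21 to 0.79, so a value blocked by letter is given where it changes a call. Letters are days of 1 cell line, and their number limits the precision. The 2 kinds of comparison, between cultures and within the control culture, share the control arrays.

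The members, the 14 further gene lists and the tests were chosen with earlier results of these data known. List genes are named, up to 5 per list, by the smallest adjusted p among those that passed for the mean of hours 1 to 8 or for any change of the control culture, apart from Bub1, Pdgfra and Vcam1, named after their values were seen. The alternatives tried are given with their effect in the closing section, and 2 were added after the values were seen, namely the control array of letter a at time 0 left out and hours 1 and 2 as baseline.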

Additional observations from a re-analysis of the deposited data

How the results depend on the processing

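Numbers here count the members called out of 6. With the letter as a block the share of all probe sets called rose too. It went from 12% to 26.6% for insulin minus control over hours 1 to 8, and from 3.38% to 15.2% for the insulin culture against hours 1 and 2. For 1 mean per letter and for the settings that leave out arrays that share is not given here. Their counts are therefore not read as a result about the members. With the letter as a block (the pairing of cultures by day) the counts were 1, against 0, for insulin minus control over hours 1 to 8 and over hours 5 to 8, both times Id2, and 4, against 2, for any change of the insulin culture. It added Id2 for the insulin culture minus time 0 and Id1 for any change of the control culture, and changed no other call of a brightest probe set. With 1 mean per letter the counts were 0 for hours 5 to 8 minus time 0 (insulin 3 and control 4 otherwise) and minus hours 1 and 2 (4 in each culture otherwise). That fit was not run for hour 3 or for the tests of any change. With letter b left out at hours 0 to 5 the count was 1 for hours 5 to 8 minus hours 1 and 2 in the insulin culture, 0 for the control culture minus time 0, 1 for any change of the insulin culture and 0 for any change of the control culture. Without the control array of letter a at time 0, and with the next brightest probe set, the count for insulin minus control over hours 5 to 8 was 1. Leaving out each letter in turn gave 0 to 1 for insulin minus control over hours 1 to 8, over hours 5 to 8, for its change and for any difference. It gave 1 to 4 for the insulin culture and 0 to 4 for the control culture against time 0, 1 to 4 and 2 to 5 against hours 1 and 2, and 0 to 4 and 0 to 5 for any change. The cause of these changes was not tested. Over single members and comparisons, 1362 of 1448 alternative values kept their side of the threshold, 60 lost the call, 26 gained it and 0 called values changed sign. With no filter on low values 1 call was lost, that of Id2 in the insulin culture against hours 1 and 2. No variance trend and arrays centred on their medians changed no call. Signals of Smad7 near the limit of 5 bound what could be seen for it.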
